A study of Mus musculus with 16 samples.

Results

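Expression of 8 genes with which an antigen-presenting cell is recognised by a T cell, or signals to it, was examined in cultured mouse monocytes: the receptor gene Cd40, the costimulatory ligand genes Cd80, Cd86 and Icosl, the checkpoint ligand genes Cd274 (PD-L1) and Pdcd1lg2 (PD-L2), the maturation marker Cd83 and the adhesion ligand gene Icam1. They were taken by gene symbol from a table of 13085 genes, and all 8 were listed and passed the filter on low values. RNA had been sequenced from 16 libraries of monocytes of C57BL/6 background, 4 for each of 4 conditions, which were no stimulus or IFN-γ plus CD40L, each for 6 or 24 h. Each condition held 2 libraries titled NFAM1+/+ and 2 titled NFAM1-/-, the latter from mice in which exons 2 and 3 of Nfam1, an activating receptor of myeloid cells, had been removed in the germ line with CRISPR-Cas9. Stimulated cells received IFN-γ, labelled as 100 µg/mL, for 1 h and then 1 µg/mL of MegaCD40L, a multimeric CD40 ligand. Cells given IFN-γ or CD40L alone were not analysed here, so the part of each agent in a response cannot be told apart. The labels name the cells as blood monocytes and the methods as bone marrow monocytes, and neither ties a library to a mouse. The study used fewer mice than there are libraries, so some libraries share a mouse and the p-values measure the spread between these libraries only.

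CD40 is a receptor of the TNF receptor family on monocytes, dendritic cells and B cells, and its ligation by CD40L on activated T cells activates NF-kB. CD80 and CD86 engage CD28, which costimulates the T cell, or CTLA-4, which restrains it, and ICOSL engages ICOS. PD-L1 and PD-L2 engage PD-1, which restrains the T cell, ICAM-1 holds the T cell through the integrin LFA-1, and CD83 stabilises MHC class II and CD86 at the surface. IFN-γ acts through JAK kinases and IRF1, and the genes of CD40, PD-L1 and ICAM-1 are textbook targets of that pathway.

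The libraries held 48295939 to 88514341 reads on the listed genes. Values are CPM, reads relative to a library size that the authors scaled. The ratio of reads to that scaled size was 0.756 to 0.788 without stimulus, 1.24 to 1.32 with stimulus at 6 h and 0.970 to 0.997 with stimulus at 24 h, so the scaling moves with the stimulus, and values scaled to each library's own total are given where they change a call. Defining monocyte markers were detected in every library, with a sum over 10 genes, led by Lyz2, of 23130 to 31212 CPM without and 9152 to 12382 CPM with stimulus. Single markers moved both ways with stimulus, more of them lower than higher. Cx3cr1 at 19.0 to 61.3 CPM and Itgam at 44.0 to 107 CPM were lower than without stimulus. Ly6c2 was higher, at 345 to 503 CPM without and 2200 to 2505 CPM with stimulus at 6 h, and 446 to 530 CPM and 2125 to 2965 CPM at 24 h. Markers of B cells (3 of 7 genes tested) summed to 1.52 to 28.0 CPM and those of T cells (4 of 7) to 0.679 to 11.7 CPM. Ms4a1, Pax5, Blk, Cd3d, Cd3e, Cd3g and the 6 NK cell genes were not analysed here. Neutrophil markers (8 genes) summed to 38.0 to 175 CPM at 6 h. In 4 of the 8 libraries at 24 h, libraries 44, 46, 56 and 58, the title and the genotype tag name opposite genotypes. Results by stimulus and time do not depend on that conflict, whereas results by genotype at 24 h do.

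The 8 genes lie on 6 chromosomes. Cd274 (chr19:29367455-29388095, plus strand) and Pdcd1lg2 (chr19:29410919-29471161, plus strand) are neighbours. Cd80 (chr16:38455561-38496335, plus strand) and Cd86 (chr16:36603869-36666081, minus strand) share a chromosome. The others are Cd40 (chr2:165055627-165072948), Cd83 (chr13:43784775-43803132), Icosl (chr10:78069302-78083913) and Icam1 (chr9:21015985-21028817), each on the plus strand. These are positions of whole genes in GENCODE vM21 on GRCm38, which is an older build than the GRCm39 named in the submitters' processing notes. A gene on the minus strand overlaps 3 of the 8, AC119228.1 at Cd274, A930007I19Rik at Pdcd1lg2 and Gm47079 at Icam1. The libraries were not stranded, so reads of an overlapping pair cannot be told apart.

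Promoter sequence of 250 bases before the annotated start was at hand for 5 of the 8 genes, namely Cd80, Cd274, Pdcd1lg2, Icosl and Icam1, from RefSeq on GRCm38.p6. It was searched on both strands for 3 motifs of the pathways that the stimulus engages: the IFN-γ-activated site GAS (TTCNNNGAA), the interferon-stimulated response element ISRE and the NF-kB motif. Shown are Icam1, Pdcd1lg2 and Cd274, the gene with the largest response. Icam1 holds a stretch that matches the GAS pattern on both strands, 42 to 34 bases before the start. Pdcd1lg2 holds an NF-kB motif on both strands 244 to 235 bases before its start. In Cd274 none of the 3 was found. Capitals mark the motif, and the windows are chr9:21015690-21015939, chr19:29410669-29410918 and chr19:29367188-29367437, all on the plus strand.
Icam1: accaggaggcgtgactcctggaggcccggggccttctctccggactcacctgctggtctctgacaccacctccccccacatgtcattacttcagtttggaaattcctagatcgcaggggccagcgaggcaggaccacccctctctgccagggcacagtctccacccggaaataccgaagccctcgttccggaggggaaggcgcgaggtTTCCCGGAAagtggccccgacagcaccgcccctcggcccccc
Pdcd1lg2: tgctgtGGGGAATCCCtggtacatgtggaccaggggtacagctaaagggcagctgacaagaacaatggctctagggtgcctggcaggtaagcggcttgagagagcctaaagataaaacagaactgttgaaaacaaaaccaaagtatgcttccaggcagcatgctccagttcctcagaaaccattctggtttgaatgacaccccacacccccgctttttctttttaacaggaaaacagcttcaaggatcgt
Cd274: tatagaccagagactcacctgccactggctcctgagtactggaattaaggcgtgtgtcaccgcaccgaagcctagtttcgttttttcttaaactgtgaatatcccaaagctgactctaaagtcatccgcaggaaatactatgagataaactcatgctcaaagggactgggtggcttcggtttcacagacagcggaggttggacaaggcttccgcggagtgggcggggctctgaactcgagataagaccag
Icosl held an NF-kB motif on the minus strand 111 to 102 bases before its start, and Cd80 held none of the 3. The Cd80 window, chr16:38458683-38458932, lies inside the gene as placed above, so the sequence before the start of the whole gene was not searched. Of 32851 promoters searched in the same way, 7.02% held a GAS motif, 2.98% an ISRE and 7.25% an NF-kB motif. These matches describe the letters of the window, and no factor was measured at them.

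Stimulation with IFN-γ plus CD40L was compared with culture alone to ask which of the 8 genes respond and by how much. At 6 h, 6 of the 8 genes were called higher which here means 2-fold or more together with an adjusted p under 0.05 (limma, Benjamini-Hochberg over 12782 genes), against 19.0% of all genes tested, and at 24 h it was again 6 of 8, against 14.6%. Cd40, Cd86, Cd274, Pdcd1lg2 and Icam1 rose at both times, Cd83 was called at 6 h only and Cd80 at 24 h only. The median log2 fold change of all genes was -0.13 at 6 h and 0.01 at 24 h. For single genes the smallest p that an exact two-sided permutation test of 4 against 4 libraries can give is 0.0286. Over the same contrast the 10 monocyte markers summed to 23130 to 25290 CPM without and 9152 to 11102 CPM with stimulus at 6 h, and 7 dendritic cell markers to 51.8 to 69.4 CPM and 36.9 to 55.8 CPM. At 24 h the dendritic cell markers summed to 143 to 307 CPM without and 37.6 to 42.7 CPM with stimulus, and the neutrophil markers to 302 to 528 CPM and 71.7 to 122 CPM. The part of cell composition in the responses was not tested, and in RNA of a whole culture fewer cells of a type and less RNA per cell cannot be told apart.

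**Figure D1:**
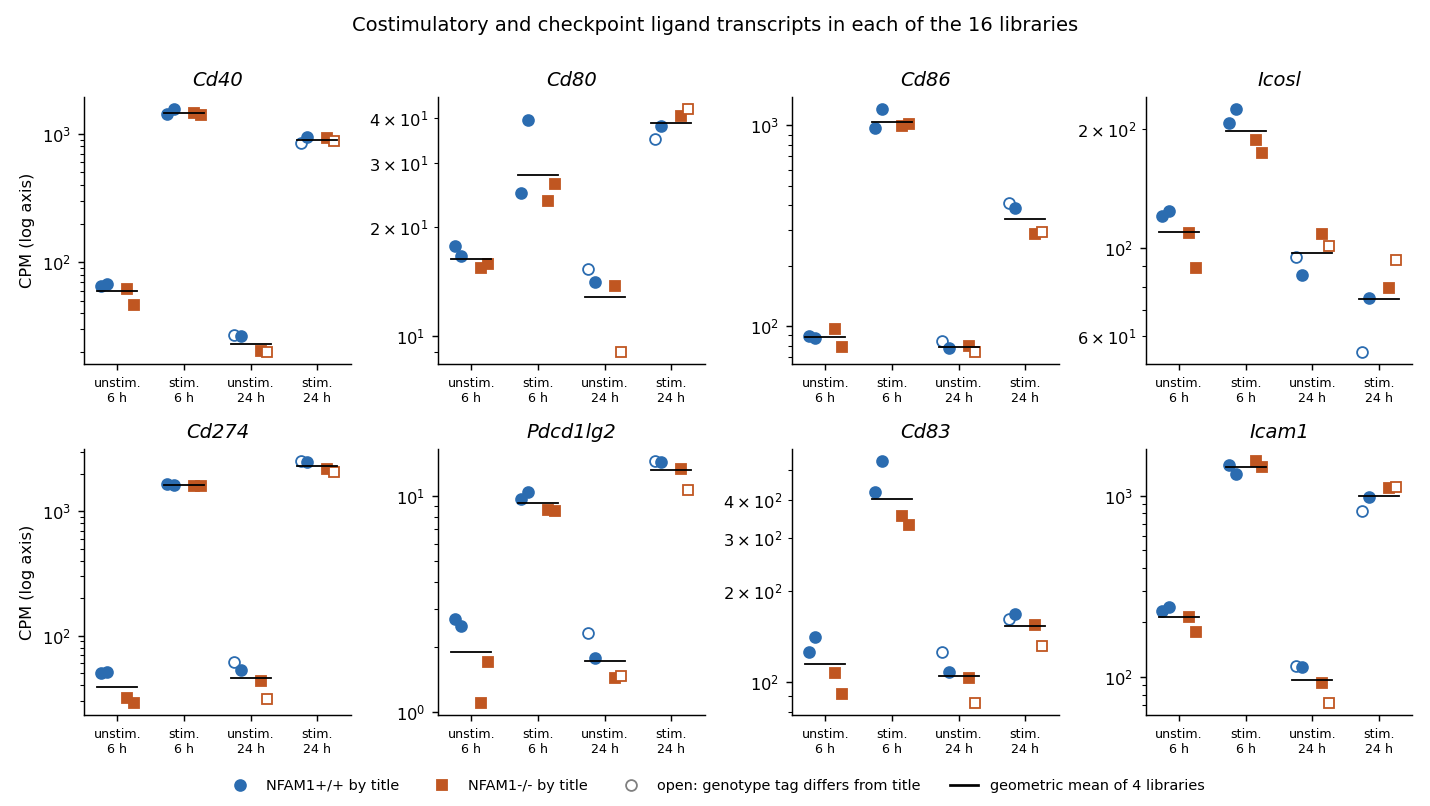
Level of each of the 8 genes in all 16 libraries, in CPM on a log axis, by condition. Circles are libraries titled NFAM1+/+ and squares libraries titled NFAM1-/-, open symbols mark the 4 libraries whose tag names the other genotype, and the line is the geometric mean of 4 libraries. Cd40 and Cd274 show the widest gap between unstimulated and stimulated libraries at both times, and the narrowest is that of Cd80 and Icosl at 6 h and of Icosl and Cd83 at 24 h.

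Cd40, the receptor for the ligand that was added, was at 46.1, 61.9, 64.7 and 67.3 CPM in the unstimulated and 1403, 1435, 1444 and 1549.8 CPM in the stimulated libraries at 6 h. In the 24 h libraries it was at 20.04, 20.2, 26.5 and 27.0 CPM and at 841, 875, 919 and 948 CPM. No library of one group reached the other at either time (exact permutation p = 0.0286 at each). The log2 fold change was 4.62 (SE 0.11, adjusted p = 2.60e-16, limma) at 6 h and 5.27 (SE 0.11, adjusted p = 1.33e-16) at 24 h.

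Of the CD28 ligands, Cd86 had the larger response at 6 h. It was at 78.7, 87.7, 89.0 and 96.7 CPM without and 972, 993, 1015 and 1203 CPM with stimulus at 6 h. At 24 h the values were 74.5, 77.5, 80.1 and 84.8 CPM without and 288, 295, 387 and 410.1 CPM with stimulus. All stimulated libraries lay above all unstimulated ones, while the 24 h stimulated libraries fell into a lower and a higher pair that follow the genotype of the title. Its log2 fold change was 3.57 (SE 0.11, adjusted p = 3.54e-15, limma) at 6 h and 2.11 (SE 0.11, adjusted p = 7.91e-12) at 24 h.

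Cd80 was the least abundant of the CD28 ligands. It was at 15.4, 15.8, 16.6 and 17.7 CPM without and 23.5, 24.8, 26.2 and 39.4 CPM with stimulus at 6 h. The 24 h libraries held 9.03, 13.7, 14.1 and 15.3 CPM without and 34.8, 38.0, 40.5 and 42.2 CPM with stimulus. The groups did not overlap at either time, and at 6 h 1 library, library 26 of NFAM1+/+, stood above the other 3 stimulated ones. The log2 fold change was 0.77 (SE 0.16, adjusted p = 0.000289, limma) at 6 h, which is under 2-fold, and 1.60 (SE 0.16, adjusted p = 8.05e-08) at 24 h. Scaled to each library's own total, the 6 h difference was 0.04 (adjusted p = 0.811). Relative to the median of all genes it was 0.90. That value is the same under both scalings by construction, since a library's factor moves all genes alike, so it is no check of the call.

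Icosl, the ligand of ICOS, was the one gene of the 8 whose differences had opposite signs at 6 and 24 h. It was at 89.1, 109, 120.4 and 124 CPM without and 174, 188, 207 and 224 CPM with stimulus at 6 h. The values at 24 h were 85.7, 95.1, 101.5 and 109 CPM without and 54.8, 74.9, 79.4 and 93.6 CPM with stimulus. The groups were apart at 6 h and overlapped at 24 h (exact permutation p = 0.0571). Its log2 fold change was 0.85 (SE 0.14, adjusted p = 2.60e-05, limma) at 6 h and -0.39 (SE 0.14, adjusted p = 0.0174) at 24 h, and neither reached 2-fold. Scaled to own totals, the 6 h value was 0.12 (adjusted p = 0.437) and the 24 h value -0.72. The 24 h adjusted p rose to 0.0552 without library 43 and to 0.0749 without library 56, where the difference was -0.24.

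Both PD-1 ligands rose at both times. Cd274 was at 28.6, 31.3, 49.8 and 50.8 CPM without and 1594, 1597, 1620 and 1664 CPM with stimulus at 6 h, so the unstimulated libraries varied among themselves while the stimulated ones lay within a narrow range. At 24 h it was at 30.8, 43.7, 53.4 and 61.5 CPM without and 2074, 2205, 2484 and 2554 CPM with stimulus. The log2 fold change, the highest of the 8 at each time, was 5.38 (SE 0.19, adjusted p = 5.15e-14, limma) at 6 h and 5.66 (SE 0.19, adjusted p = 4.42e-14) at 24 h.

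Pdcd1lg2, the neighbouring gene, was low throughout. It was at 1.09, 1.70, 2.49 and 2.70 CPM without and 8.46, 8.58, 9.66 and 10.4 CPM with stimulus at 6 h. At 24 h it was at 1.43, 1.47, 1.76 and 2.31 CPM without and 10.6, 13.4, 14.4 and 14.5 CPM with stimulus. The groups did not overlap, and even the lowest library held 123 reads of the gene, so counting error is smaller than the spread between libraries. Its log2 fold change was 2.30 (SE 0.24, adjusted p = 1.02e-07, limma) at 6 h and 2.94 (SE 0.24, adjusted p = 5.08e-09) at 24 h.

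Cd83, a marker of maturing antigen-presenting cells, was called at the early time alone. It was at 91.2, 108, 126 and 141 CPM without and 331, 352, 423 and 538 CPM with stimulus at 6 h. At 24 h it was at 85.2, 103, 108 and 126 CPM without and 131, 155, 162 and 167 CPM with stimulus, a gap that is narrow beside the spread within each group. The log2 fold change was 1.81 (SE 0.15, adjusted p = 8.40e-09, limma) at 6 h and 0.55 (SE 0.15, adjusted p = 0.00408) at 24 h, and scaled to own totals the latter was 0.22 (adjusted p = 0.187).

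Icam1, the ligand of LFA-1, was at 177, 213, 232 and 244 CPM without and 1312, 1434, 1487 and 1560 CPM with stimulus at 6 h. At 24 h it was at 71.5, 92.1, 114 and 114 CPM without and 825, 980, 1099 and 1115 CPM with stimulus. Its log2 fold change was 2.75 (SE 0.14, adjusted p = 5.70e-12, limma) at 6 h and 3.38 (SE 0.14, adjusted p = 5.17e-13) at 24 h, with no overlap between groups at either time.

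**Figure D2:**
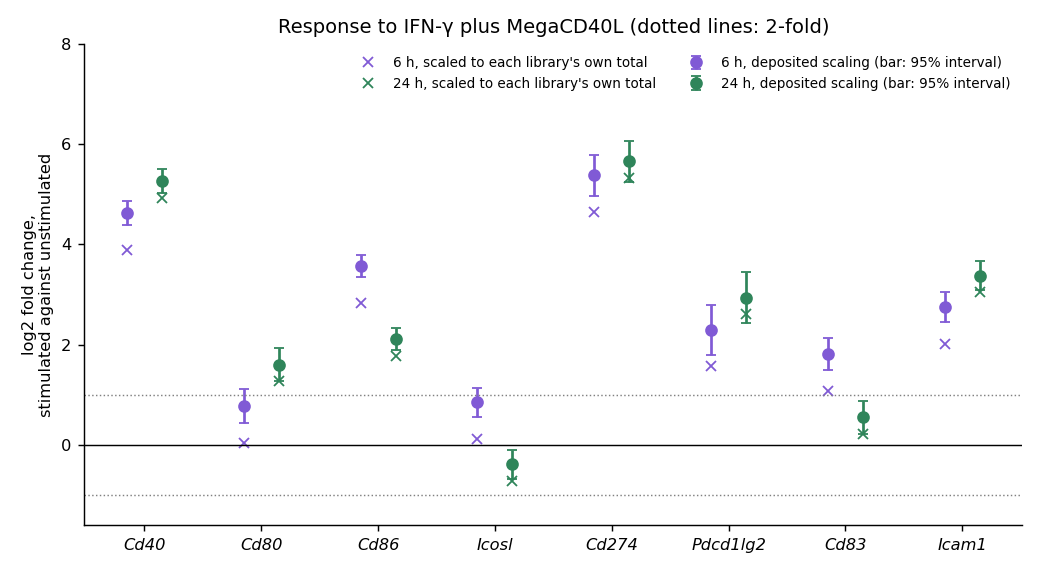
Log2 fold change of stimulated over unstimulated libraries for the 8 genes at 6 and 24 h, 4 libraries a group, as points with 95% intervals from limma. Crosses give the same difference with each library scaled to its own read total, and dotted lines mark 2-fold. Cd274 and Cd40 lie highest at both times, Cd86 drops from 3.57 to 2.11 and Icosl crosses 0.

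Levels of the 8 genes were compared with each other as mean CPM per kilobase of exon. Without stimulus at 6 h the order was Icam1 (49.7) and Cd83 (45.3), then Cd86 (24.0), Icosl (24.0), Cd40 (17.6) and Cd274 (11.1), then Cd80 (4.42) and Pdcd1lg2 (1.02). The ranges over libraries of Icam1 and Cd83 overlapped, as did those of neighbours from Cd86 to Cd274. With stimulus at 6 h Cd274 (446.9) and Cd40 (428) led with overlapping ranges, Icam1 (332) and Cd86 (286) followed with overlapping ranges, and Cd83 (160), Icosl (42.9), Cd80 (7.69) and Pdcd1lg2 (4.74) came below, each apart from its neighbours.

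At 24 h without stimulus Cd83 (41.1 CPM per kilobase) was highest, followed by Icam1 (22.5), Cd86 (21.6) and Icosl (21.2) with overlapping ranges. Cd274 (13.1), Cd40 (6.89), Cd80 (3.52) and Pdcd1lg2 (0.888) were lower and apart from one another. With stimulus at 24 h Cd274 (643) stood alone, Cd40 (263) and Icam1 (230) overlapped, and Cd86 (94.3), Cd83 (59.8), Icosl (16.4), Cd80 (10.5) and Pdcd1lg2 (6.74) followed without overlap. Cd40 and Cd274 thus ranked below Icam1, Cd83, Cd86 and Icosl without stimulus and at or near the top with it, while Cd80 and Pdcd1lg2 had the lowest means in all 4 conditions.

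The balance within each ligand pair was followed as a ratio of levels per kilobase in each library. Cd86 exceeded Cd80 by a geometric mean of 5.44-fold without and 37.8-fold with stimulus at 6 h, a log2 difference of 2.80 (exact permutation p = 0.0286). At 24 h the ratios were 6.26 and 8.89, a log2 difference of 0.51 with overlapping libraries (exact permutation p = 0.0857). Between the times the ratio in stimulated cells fell by 2.09 on the log2 scale (exact permutation p = 0.0286). For the PD-1 ligands, Cd274 exceeded Pdcd1lg2 by 11.2-fold without and 94.7-fold with stimulus at 6 h (log2 difference 3.08, exact permutation p = 0.0286) and by 14.5-fold and 95.8-fold at 24 h (log2 difference 2.72, exact permutation p = 0.0286). In stimulated cells that ratio differed by 0.02 between the times (exact permutation p = 0.857). These ratios do not depend on the scaling of a library, since both genes carry the same factor.

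**Figure D3:**
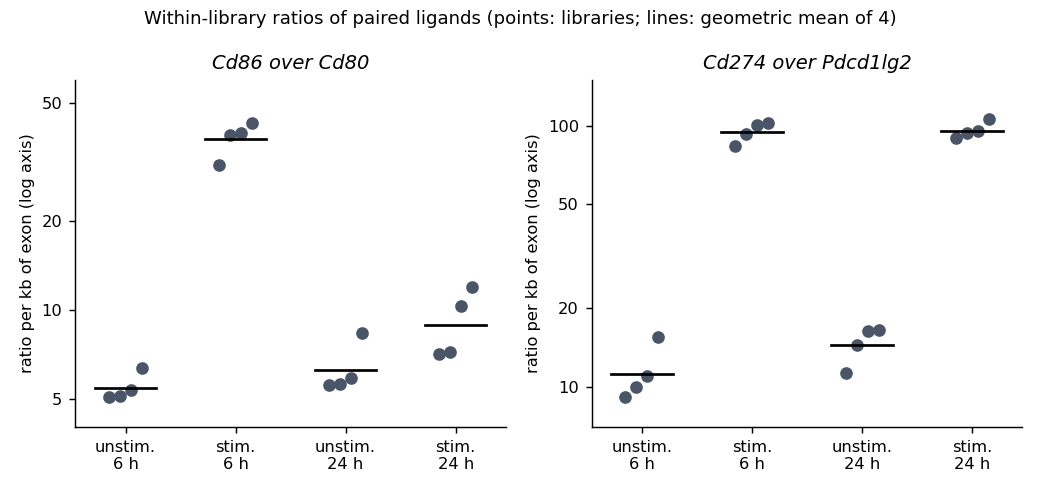
Ratio of Cd86 to Cd80 and of Cd274 to Pdcd1lg2, in CPM per kilobase of exon, in each of the 16 libraries on a log axis. The Cd86 to Cd80 ratio is high in the stimulated libraries at 6 h and close to the unstimulated level at 24 h, whereas the Cd274 to Pdcd1lg2 ratio is high at both times.

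The course in time was examined in each condition. Without stimulus, 2 of the 8 genes were called lower at 24 h than at 6 h, against 7.70% of all genes tested: Cd40 (log2 fold change -1.35, SE 0.11, adjusted p = 2.23e-08, limma) and Icam1 (-1.16, SE 0.14, adjusted p = 1.54e-06). None was called higher, against 13.2%. In the same contrast 6 of 8 neutrophil, 5 of 7 dendritic cell, 2 of 3 B cell and 2 of 4 T cell markers and 7 of 8 genes of antigen-presenting cell maturation were called higher at 24 h, and their part was not tested. The other 6 genes had values from -0.35 (Cd80, adjusted p = 0.0643) to 0.24 (Cd274, adjusted p = 0.293). With stimulus, 3 of 8 were called between the times, against 33.5% of all genes called in either direction, which is near the background. All 3 were lower at 24 h, as were 2177 of the 12782 genes tested. They were Cd86 (-1.61, SE 0.11, adjusted p = 3.61e-10), Icosl (-1.41, SE 0.14, adjusted p = 6.38e-08) and Cd83 (-1.40, SE 0.15, adjusted p = 2.92e-07). Cd40 differed by -0.70 (adjusted p = 2.42e-05, and by -0.17 with adjusted p = 0.201 under quantile normalization) and Cd274 by 0.52 (adjusted p = 0.0220, and 0.0540 without library 56 or 0.0512 without library 57), both under 2-fold. Icam1 differed by -0.53 (adjusted p = 0.0021), which became -0.16 (adjusted p = 0.295) when scaled to own totals. Cd80 (0.48, adjusted p = 0.0121) overlapped between the times (exact permutation p = 0.0857), and Pdcd1lg2 differed by 0.50 (adjusted p = 0.0644, under 0.05 without library 1, 3 or 58). With 8 groups by genotype the adjusted p of Pdcd1lg2 was 0.00964 by title and 0.0269 by tag (limma).

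Whether the response itself differed between the times was tested as the response at 24 h minus that at 6 h. It differed at an adjusted p under 0.05 and any fold for 6 of 8 genes, against 64.7% of all genes tested, which is near the background. It was smaller at 24 h for 3 of 8 genes, against 18.1% of all genes tested: Cd86 (-1.46, SE 0.15, adjusted p = 2.37e-07, limma), Cd83 (-1.26, SE 0.22, adjusted p = 7.71e-05) and Icosl (-1.24, SE 0.19, adjusted p = 3.03e-05). It was larger at 24 h, by less than 2-fold with an adjusted p under 0.05, for 3 genes, against 33.9% of all genes at any fold: Cd80 (0.83, SE 0.22, adjusted p = 0.00387), Cd40 (0.65, SE 0.16, adjusted p = 0.00184) and Icam1 (0.63, SE 0.19, adjusted p = 0.00973). Pdcd1lg2 (0.64, SE 0.33, adjusted p = 0.104, and 0.90 with adjusted p = 0.00791 without library 3) and Cd274 (0.28, SE 0.27, adjusted p = 0.382) did not pass. For Pdcd1lg2 this depends on the pooling of genotypes. With 8 groups by genotype its adjusted p was 0.0201 by title and 0.0489 by tag (limma). Scaled to own totals, 4 genes were called larger at 24 h, against 25.3% of all genes, namely Cd40 (1.05), Cd80 (1.23), Pdcd1lg2 (1.04) and Icam1 (1.02), and 1 smaller, against 12.1%, namely Cd86 (-1.06), while Cd83 was at -0.87 and Icosl at -0.84. Cd274 was at 0.68 by own totals (adjusted p = 0.0310, limma), under 2-fold. In libraries titled NFAM1+/+ alone, with the deposited scaling, it was at 0.43 (adjusted p = 0.0113). For Cd40 and Icam1 the lower level of unstimulated cells at 24 h enters the difference between the responses.

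Libraries from NFAM1-/- mice were compared with NFAM1+/+ libraries in each condition to ask whether the 8 genes depend on the receptor. Nfam1 itself, counted over the whole gene, was at 432 and 408 CPM in NFAM1+/+ and 299 and 321 CPM in NFAM1-/- libraries without stimulus at 6 h. With stimulus at 6 h it was at 133 and 129 CPM against 135 and 127 CPM. By title it was at 463 and 495 CPM against 441 and 391 CPM without and at 271 and 252 CPM against 201 and 223 CPM with stimulus at 24 h. Reads of exons outside the deleted part are counted too, so these values check the labels poorly. The log2 difference, averaged over the 4 conditions by title, was -0.24 (SE 0.04, adjusted p = 0.0082, limma; exact permutation p = 0.00463). By tag it was -0.11 (exact permutation p = 0.233).

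At 6 h, where title and tag agree, all 8 genes had a lower mean in unstimulated NFAM1-/- libraries, and 7 of 8 had both NFAM1-/- libraries below both NFAM1+/+ ones, against 20.4% of all genes tested. None reached 2-fold with an adjusted p under 0.05, against 0.0248% of all genes called lower by that rule. Cd274 was at 49.8 and 50.8 CPM in NFAM1+/+ and 31.3 and 28.6 CPM in NFAM1-/- libraries. The groups were apart, and at a log2 difference of -0.75 (SE 0.07, adjusted p = 0.0106, limma) it was the one member under an adjusted p of 0.05 at any fold, against 0.107% of all genes lower. The adjusted p was 0.0545 without library 1, 0.0701 without library 4, 0.0794 without library 11 and 0.0750 without library 12, with differences of -0.81 to -0.68. Pdcd1lg2 was at 2.70 and 2.49 CPM against 1.09 and 1.70 CPM (-0.93, SE 0.24, adjusted p = 0.247). The remaining values ran from -0.43 for Cd83 (adjusted p = 0.326) to -0.02 for Cd86, the gene whose libraries overlapped.

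After stimulation for 6 h, Cd274 was at 1620 and 1664 CPM in NFAM1+/+ and 1594 and 1597 CPM in NFAM1-/- libraries, a log2 difference of -0.04 (adjusted p = 0.840, limma). No member passed an adjusted p of 0.05, against 0.0165% of all genes lower and 0.0248% higher, and 4 of 8 had both NFAM1-/- libraries below both NFAM1+/+ ones, against 19.0%. Cd83 had the largest difference, with 538 and 423 CPM against 352 and 331 CPM (-0.48, SE 0.12, adjusted p = 0.294), followed by Icosl (-0.25, adjusted p = 0.362). At this time with stimulus the monocyte markers summed to 9152 to 9259 CPM in NFAM1+/+ and 10741 to 11102 CPM in NFAM1-/- libraries and the dendritic cell markers to 41.6 to 55.8 CPM and 36.9 to 40.6 CPM, and their part was not tested. Without library 10 the NFAM1+/+ side is library 26 alone, the higher of the pair for Cd83 and Cd80. Cd83 then differed by -0.65 and Cd80 by -0.67. The difference between stimulated and unstimulated genotype differences was 0.71 (SE 0.10, adjusted p = 0.209, limma) for Cd274, and 0.73 without library 10. The adjusted p of 0.209 was the smallest of all genes, and other genes shared it. By this test limma called 0 of 12111 genes, with 846 at an unadjusted p under 0.05.

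**Figure D4:**
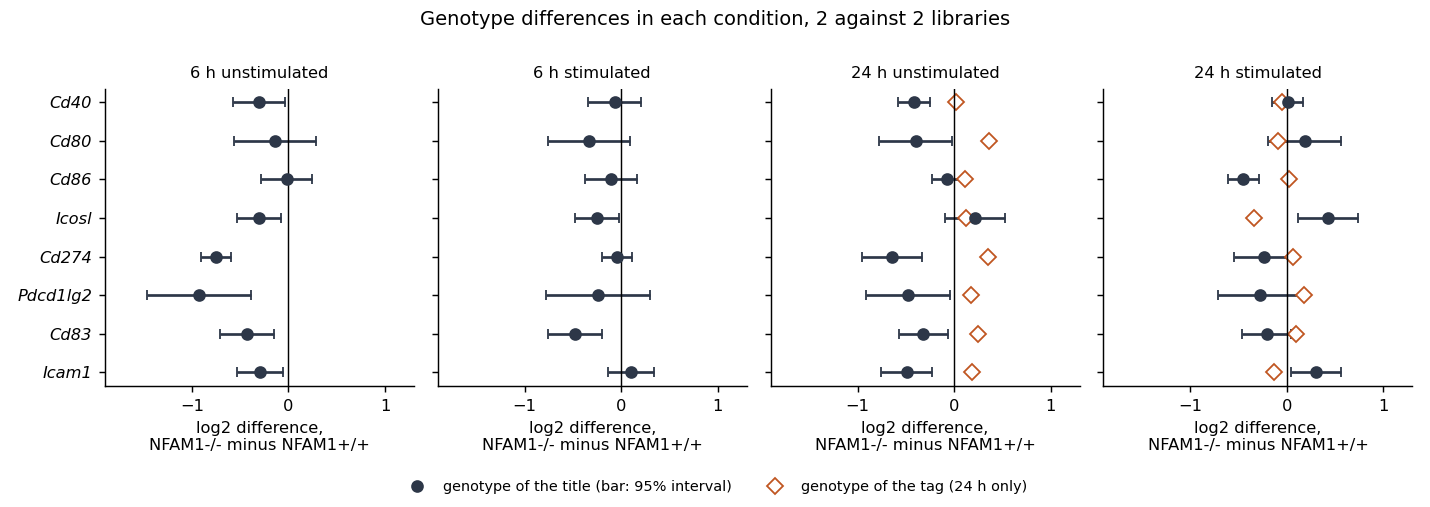
Log2 difference of NFAM1-/- minus NFAM1+/+ for the 8 genes in each of the 4 conditions, 2 libraries a group. Dots with 95% intervals use the genotype of the title, and diamonds at 24 h use the genotype tag. Unstimulated dots at 6 h lie at or below 0 for all 8 genes, and at 24 h dots and diamonds differ in sign for most genes.

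At 24 h the result depends on which label is read. Of 12164 genes, 1455 had an unadjusted p under 0.05 (limma) by title without stimulus and 233 by tag. With stimulus it was 2163 by title and 342 by tag, and which label is right was not tested. By title, 6 of 8 genes without stimulus had both NFAM1-/- libraries below both NFAM1+/+ ones, against 23.3% of all genes tested, and 1, Icosl, had both above, against 22.2%. By tag, 0 of 8 had both below, against 11.6%, and 1 had both above, against 13.7%. Cd40 was at 27.0 and 26.5 CPM in libraries titled NFAM1+/+ and 20.2 and 20.04 CPM in those titled NFAM1-/- (-0.41, SE 0.07, adjusted p = 0.0411, limma), the one member under an adjusted p of 0.05 at any fold, against 0.707% of all genes lower. This call was lost on leaving out any one of 6 of the 8 libraries in turn, with the difference at -0.43 to -0.40. Without library 43 the NFAM1-/- side is library 46 alone, whose tag names NFAM1+/+. Cd80 then differed by -0.70, Cd274 by -0.90 and Icam1 by -0.67. Library 46 was the lowest of its condition for these genes. By tag the difference of Cd40 was 0.02. Cd274 differed by -0.64 by title (SE 0.14, adjusted p = 0.0809) and 0.35 by tag, and Icam1 by -0.49 by title (SE 0.12, adjusted p = 0.116) and 0.19 by tag. The summed dendritic cell markers were at 143 to 160 CPM in the unstimulated 24 h libraries titled NFAM1+/+ and 265 to 307 CPM in those titled NFAM1-/-, and the monocyte markers at 30937 to 31212 CPM and 27083 to 28971 CPM. T cell markers were apart by title too, at 4.63 to 5.49 CPM and 6.81 to 7.14 CPM. By tag these sums overlapped between genotypes. Apart by tag were neutrophil markers, at 302 to 381 CPM in NFAM1+/+ and 404 to 528 CPM in NFAM1-/- libraries. B cell markers were also apart by tag (21.2 to 23.2 and 24.1 to 28.0 CPM). The part of these sums in the differences was not tested.

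With stimulus at 24 h, by title, 4 of 8 genes had both NFAM1-/- libraries below both NFAM1+/+ ones, against 23.7%, and 3 had both above, against 25.2%. By tag it was 0 of 8 in each direction, against 14.5% and 14.8%. Cd86 was at 410.1 and 387 CPM in libraries titled NFAM1+/+ and 288 and 295 CPM in those titled NFAM1-/-, a difference of -0.45 (SE 0.07, adjusted p = 0.0449, limma), the one member under an adjusted p of 0.05 at any fold, against 0.206% of all genes lower. The call was lost on leaving out any one of 6 of the 8 libraries in turn (adjusted p up to 0.273), with the difference at -0.49 to -0.41. By tag the difference was 0.02. Icosl was higher by title, by 0.43 (SE 0.14, adjusted p = 0.146, or 0.0394 without library 57), and Icam1 by 0.30 (SE 0.12, adjusted p = 0.221). Monocyte markers summed to 9268 to 10092 CPM in these libraries titled NFAM1+/+ and 12379 to 12382 CPM in those titled NFAM1-/-, and overlapped by tag. B cell markers were apart by title too, at 2.71 to 4.20 CPM and 5.46 to 5.82 CPM. Apart by tag were neutrophil markers, at 71.7 to 94.3 CPM in NFAM1+/+ and 116 to 122 CPM in NFAM1-/- libraries. T cell markers were also apart by tag (4.91 to 5.755 and 3.88 to 4.77 CPM). The part of these sums in the differences was not tested. In opposite order without and with stimulus at 24 h, by title and with no overlap in either, were 2 of 8 genes, Cd80 and Icam1, against 10.3% of all genes. Icosl, 1 of 8, was so between 6 and 24 h without stimulus, against 6.57%, and with stimulus, against 8.48%. Between stimulated and unstimulated cells at 24 h the genotype differences by title were farthest apart for Icam1 (0.79, SE 0.17, adjusted p = 0.0901, or 0.0385 without library 43), and limma called 0 of 12164 genes, with 1704 at an unadjusted p under 0.05.

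Averaged over the 4 conditions by title, a comparison added after the values were seen, 3 of 8 genes were lower in NFAM1-/- libraries at an adjusted p under 0.05 and any fold, against 2.11% of all genes tested. They were Cd274 (-0.42, SE 0.06, adjusted p = 0.00472, limma), Cd83 (-0.36, SE 0.07, adjusted p = 0.0116) and Pdcd1lg2 (-0.48, SE 0.11, adjusted p = 0.0332). For each the exact two-sided permutation of genotype within conditions gave p = 0.00154, the smallest that 1296 regroupings can give. That permutation, used for Nfam1 above too, treats the libraries as independent, although some share a mouse. The call of Pdcd1lg2 was lost on leaving out any one of 12 of the libraries in turn (adjusted p up to 0.0857), and those of Cd274 and Cd83 were kept without each of the 16. By tag none passed: Cd274 was at -0.09 (adjusted p = 0.838, exact permutation p = 0.580), Cd83 at -0.14 (adjusted p = 0.648, exact permutation p = 0.262) and Pdcd1lg2 at -0.20 (adjusted p = 0.691, exact permutation p = 0.287). The other members by title lay between -0.19 (Cd40, adjusted p = 0.0620) and 0.02 (Icosl).

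Genes of the pathways around the 8 were examined as lists. Of 21 other costimulatory or inhibitory ligand genes 18 were tested, of which 9 were called higher and 4 lower with the stimulus at 6 h (median log2 fold change 1.46 against -0.13 for all genes) and 9 higher and 6 lower at 24 h (1.07 against 0.01). Of all genes tested 19.0% were called higher and 20.5% lower at 6 h, and 14.6% and 18.7% at 24 h, so the share of this list called lower at 6 h was near the background. Lgals9, which encodes galectin-9, had log2 fold changes of 4.81 and 1.33. Slamf1, a self-ligand of lymphocytes and myeloid cells, was at or near 0 reads in the unstimulated libraries, so no fold is given, and it was at 0.442 to 1.01 CPM with stimulus at 6 h and 7.13 to 14.8 CPM at 24 h. Tnfsf8, the CD30 ligand gene, was at no more than 0.109 CPM without and 1.83 to 2.45 CPM with stimulus at 6 h, and at 0.560 to 1.39 CPM without and 0.0674 to 0.146 CPM with stimulus at 24 h. Of 8 genes of receptors for the 8 proteins 6 were tested, of which 3 were called higher and 2 lower at 6 h (median 0.69) and 2 higher and 2 lower at 24 h (median -0.30). Cd28, Icos and Pdcd1 encode receptors found foremost on T cells. The 4 tested T cell markers summed to 0.679 to 1.86 CPM without and 7.25 to 11.7 CPM with stimulus at 6 h, and to 4.63 to 7.14 CPM and 3.88 to 5.76 CPM at 24 h. At 6 h Lck, Cd247 and Cd8a were called higher from levels near the floor, so no folds are given. Lck was at 0.00443 to 0.329 CPM without and 2.573 to 3.115 CPM with stimulus, and Cd247 at 0.0740 to 0.553 CPM and 3.535 to 7.09 CPM. Cd8a was at 0.0914 to 0.896 CPM and 0.5905 to 1.425 CPM, with overlap. Cd4, the remaining tested marker, went the other way and was not called, at 0.457 to 0.784 CPM without and 0.285 to 0.410 CPM with stimulus. The part of the T cell markers in the values of the receptor genes was not tested. Icos changed by 2.55 and 2.53, Cd28 changed by -2.35 and -3.17, and Pdcd1, which encodes PD-1, was at 3.22 at 6 h and -0.44 (adjusted p = 0.287, limma) at 24 h. These folds rest on low levels. Without stimulus at 6 h Icos was at 0.168 to 0.826 CPM and Pdcd1 at 0.695 to 1.21 CPM. With stimulus Cd28 was at 0.0404 to 0.246 CPM at 6 h and 0.0348 to 0.487 CPM at 24 h.

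Of 16 genes of CD40 signaling and NF-kB, 10 were called higher and 1 lower at 6 h (median 1.29) and 12 higher and 1 lower at 24 h (median 1.69). Traf1, an adaptor of TNF receptors, changed by 2.11 and 3.71, Tnfaip3, the NF-kB inhibitor A20, by 2.83 and 2.34, and Birc2, a ubiquitin ligase of the CD40 complex, by 2.11 and 1.82. Of 9 genes of IFN-γ signaling, 6 were higher and 1 lower at each time (medians 3.36 and 2.59). Socs1, its feedback inhibitor, changed by 9.43 and 6.28 and Irf1 by 6.50 and 5.35. Of 8 genes of antigen-presenting cell maturation, 7 were higher and 1 lower at each time (medians 2.55 and 1.90), among them Il15ra (7.99 and 5.36), Il15 (6.04 and 3.09) and Fscn1, the actin bundler of maturing dendritic cells (3.83 and 3.14). Of 4 genes listed as acting on surface turnover of CD86 and PD-L1, 2 were tested and the other two were not analysed here. Cmtm6, which protects PD-L1 from degradation, was at 1.23 at 6 h and -0.21 at 24 h, and its relative Cmtm4 at -0.36 and -1.18.

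Among the 10 monocyte markers 2 were called higher and 5 lower at 6 h, and 1 higher and 6 lower at 24 h, beside the shares of all genes given above. Fcgr1, an IFN-γ-responsive Fc receptor, was at 4.47 and 0.69, Cx3cr1 at -4.19 and -4.98 and Cd14 at -3.51 and -1.98. Within the genotype comparisons none of the genes in the pathway lists was called, apart from Nectin2 and Cd9, both lower by title at 24 h. Nectin2, a ligand of inhibitory receptors, differed by -1.33 without stimulus (SE 0.20, adjusted p = 0.0270, limma). It was at 0.697 to 2.15 CPM there, so the fold rests on low levels. Cd9, a tetraspanin, differed by -1.14 with stimulus (SE 0.15, adjusted p = 0.0365). Of 12164 genes, 25 were called lower by title without and 8 with stimulus at 24 h. By tag Nectin2 was at 0.30 and Cd9 at 0.27, and both were named after their values were seen.

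**Figure D5:**
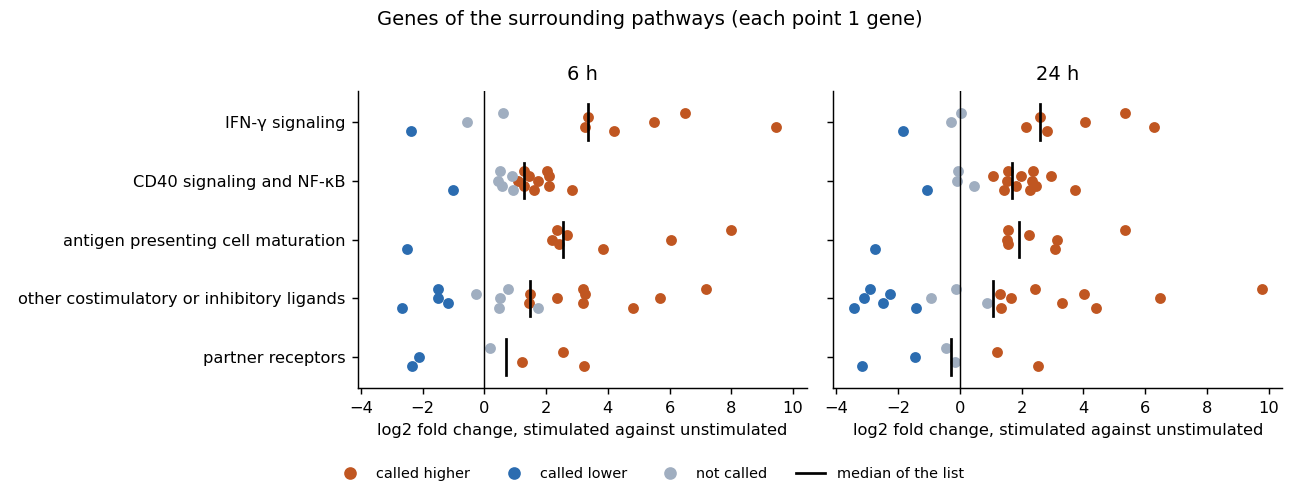
Log2 fold change of stimulated over unstimulated libraries for the tested genes of each pathway list at 6 and 24 h, each point 1 gene, with called higher, called lower and not called genes in different colours and a line at the list's median. The IFN-γ signaling list has the highest median at each time, 3.36 and 2.59.

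For each of the 8 genes the closest profiles were sought as the smallest root mean square difference of centred log2 values over the 16 libraries, among 12782 genes. The closest were Mir155hg (0.418) and Tapbpl (0.435) to Cd40, Slfn4 (0.411) and Pla2g4a (0.419) to Cd274, and Maff (0.293) and Mfsd7a (0.301) to Pdcd1lg2. For Cd86 they were Aida (0.146) and Pcgf5 (0.168), for Cd80 Filip1l (0.180) and Rap1gap2 (0.181), and for Icosl Ikzf1 (0.183) and Ubxn2a (0.185). Aftph (0.226) was the closest to Cd83, and Apobec3 (0.152) and Il2rg (0.189) were the closest to Icam1. The closest member was at 0.539 for Cd83 and Icosl, 0.594 for Cd86 and Icam1, 0.643 for Pdcd1lg2 (Icam1), 0.692 for Cd80 (Cd83) and 0.788 for Cd40 and Cd274. Each member had other genes closer to it than any member. With 12782 genes searched and few members that was likely from the outset, so nothing is drawn from it. These distances describe 16 libraries of 4 conditions that share their scaling.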

How the data were processed

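RNA of mouse monocytes was sequenced as unstranded poly(A) libraries. The authors aligned reads with STAR, counted them with Rsubread and normalized them with edgeR and limma, and the submitters' processing notes name GRCm39 (mm39) and FastQC, with versions not given in the sources used here. The deposited values are log2 CPM in the form that voom writes. Reads behind each value were recovered, and all came out whole within 0.05 reads after removal of the 0.5 that voom adds. Of the symbols, 17 read as dates and 1 is listed more than once.

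The deposited log2 values were fitted with limma 3.58.1 in R 4.3.3, with a prior variance that follows mean expression. Genes at 1 CPM or more in at least 2 libraries of a fit entered it. Stimulus and time were fitted over all 16 libraries in 4 groups with genotypes pooled (12782 genes), and genotype over the 8 libraries at 6 h (12111 genes) and at 24 h (12164 genes), each in 4 groups of 2. A gene counted as called where it changed 2-fold or more with an adjusted p under 0.05 (Benjamini-Hochberg), the study's thresholds. Single genes were also compared with exact two-sided permutation tests (scipy 1.17.1, Python 3.11.15). Scripts were tested on simulated data. Other scalings, filters, variance priors, weights, the genotype tag and leaving out each library were tried. The 8 genes and the lists were chosen with earlier results of these data known. Named from each list were up to 3 genes with the largest absolute fold change at 6 h, and from all genes the 2 closest profiles of each member. Libraries with IFN-γ alone were not analysed here, and the dose of IFN-γ in the labels differs from that in the RNA sequencing section of the methods. A few genes that these rules name are not reported here.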

Additional observations from a re-analysis of the deposited data

Results flagged for a closer look

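The response to the stimulus differed between 6 and 24 h, by limma's test of the difference at an adjusted p under 0.05, for 6 of the 8 genes, against 64.7% of all genes tested, so the count itself is near the background. On the log2 scale it was larger at 24 h for Cd80 (0.83), Cd40 (0.65) and Icam1 (0.63) and smaller for Cd86 (-1.46), Cd83 (-1.26) and Icosl (-1.24). In the libraries titled NFAM1+/+ alone the value of Cd80 was 0.44 (adjusted p = 0.186).

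In 4 cases both libraries titled NFAM1-/- lay below both titled NFAM1+/+ in one condition and above both in another, an order that 6.57% to 10.3% of all genes also showed in the same pairs of conditions. At 24 h Cd80 differed by -0.40 without and 0.18 with stimulus, and Icam1 by -0.49 without and 0.30 with stimulus. Tested as a difference these were 0.58 (adjusted p = 0.320, limma) for Cd80 and 0.79 (adjusted p = 0.0901) for Icam1. Icosl differed by -0.31 at 6 h and 0.22 at 24 h without stimulus, and by -0.25 at 6 h and 0.43 at 24 h with stimulus, and the difference between times was not tested. By the genotype tag these 24 h orders were lost. No library stood apart from the other 3 of its condition in any of 32 sets of 4 values, at a criterion that chance passes in about 1 set in 20.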

How the results depend on the processing

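Of 2120 values of the 8 genes under alternatives, 1971 kept direction and side of the threshold, 59 lost and 40 gained the threshold, and 50 changed sign, 20 of them on leaving out 1 library. For the counts of members under an adjusted p of 0.05 (2-fold too for stimulus and time), the cause of each change below was not tested. The response difference between times went from 3 to 5 when scaled to own totals. For genotype at 6 h without stimulus the count went from 1 to 0 with no trend in the prior. At 24 h without stimulus by title it went from 1 to 0 with no filter, no trend or the tag, and to 2 with the compared groups alone. At 24 h with stimulus it went from 1 to 0 with no filter, own totals, quantile scaling, no trend, the compared groups alone or the tag. For the mean of 4 conditions it went from 3 to 1 with no trend and to 0 by tag. In the genotype fits, leaving out 1 library left 1 library in its group, so those counts lack a replicate there. Leaving out 1 library gave 6 to 6 for the stimulus at 6 and 24 h, 2 to 2 and 3 to 3 for time without and with stimulus, 3 to 3 for the response difference, 0 to 1, 0 to 2 and 0 to 1 for genotype at 6 h without stimulus, with it and their difference, 0 to 3, 0 to 2 and 0 to 1 for the same at 24 h, and 2 to 5 for the mean.

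Signs changed as follows. For 24 against 6 h without stimulus in libraries titled NFAM1-/-, Pdcd1lg2 was at 0.0887 and Icosl at 0.0915. Under quantile scaling Icam1 was at 0.0026 (24 against 6 h with stimulus), Cd86 at 0.0007 (genotype, 6 h, no stimulus) and Cd83 at 0.0557 (interaction at 6 h). By tag at 24 h without stimulus Cd40 was at 0.0197, Cd80 0.36, Cd86 0.12, Cd83 0.25, Cd274 0.35, Pdcd1lg2 0.17 and Icam1 0.19. With stimulus Cd40 was at -0.0503 (-0.0126 when centred), Cd80 -0.0927, Cd86 0.0247, Cd83 0.0929, Cd274 0.0645, Pdcd1lg2 0.17, Icosl -0.34 and Icam1 -0.13. For their difference Cd40 was at -0.0701, Cd80 -0.46, Cd83 -0.15, Cd274 -0.29, Pdcd1lg2 -0.0010, Icosl -0.47 and Icam1 -0.32. For the mean by tag Cd86 was at 0.0042 and Icosl at -0.19. Leaving out 1 library, Pdcd1lg2 ran from -0.40 to 0.0366 (24 against 6 h, no stimulus), Cd86 from -0.17 to 0.13 (genotype, 6 h, no stimulus) and, with stimulus at 6 h, Cd80 from -0.67 to 0.003 and Cd86 from -0.26 to 0.0477. For the interaction at 6 h the ranges were -0.53 to 0.14 (Cd80), -0.24 to 0.0662 (Cd86), -0.23 to 0.12 (Cd83) and -0.0912 to 0.20 (Icosl). At 24 h they were -0.0801 to 0.0922 for Cd40 with stimulus, and -0.0272 to 0.25 for Cd83 and -0.0169 to 0.43 for Icosl for the difference. For the mean Icosl ran from -0.0343 to 0.0782.

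Scaling moved the balance of called genes. Among all genes called with the stimulus the share higher was 48.1% at 6 h and 43.8% at 24 h, and 22.0% and 30.4% when scaled to own totals, where the median of all genes was -0.86 and -0.33. For stimulated cells between times it was 49.1%, or 69.3% by own totals and 38.6% when centred, and for the response difference 42.2%, 67.6% and 33.5%. No paired analysis was possible because the labels give each library its own number. The genotype comparisons rest on 2 libraries per genotype and condition, and whether depth or the spread between libraries limits them was not tested.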

Other observations

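At 24 h only 1 library of each genotype and condition has a title and a tag that agree, so these pairs have no replicate. Without stimulus, library 43 (NFAM1-/-) minus library 45 (NFAM1+/+) was -0.39 for Cd40, -0.29 for Cd274, -0.30 for Pdcd1lg2, -0.30 for Icam1 and 0.35 for Icosl on the log2 scale. Cd83 (-0.07), Cd80 (-0.03) and Cd86 (0.05) were closer to 0. With stimulus, library 55 (NFAM1-/-) minus library 57 (NFAM1+/+) was -0.43 for Cd86, -0.17 for Cd274, -0.12 for Cd83 and -0.10 for Pdcd1lg2, and Icam1 (0.17), Cd80 (0.09), Icosl (0.08) and Cd40 (-0.04) made up the rest.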
